A study of Mustela putorius furo with 8 samples.

Results

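SPINK1 (serine peptidase inhibitor Kazal type 1, pancreatic secretory trypsin inhibitor) was examined as 1 gene of the 27912 in the count matrices of ferret pancreatic ductal epithelia. It was chosen by its late rise in the CF libraries, so its levels are given as a description and no test was made of them. The cultures came from newborn ferrets 1 to 3 days old, either wild type (WT) or homozygous for a knockout of CFTR (CFTR KO/KO, here CF), the chloride and bicarbonate channel lost in cystic fibrosis. Duct cells of both genotypes were grown to passage 10, seeded on permeable supports and polarized at an air-liquid interface (ALI) in PneumaCult-ALI medium. Droplet single-cell RNA libraries were made on day 2, 5, 7 and 9 at the ALI, 1 library for each genotype and day. The study pooled several animals in each library and the cells were not traced to them, so there is no replicate error and genotype cannot be told apart from donor, pool or library. The passages were meant to leave duct cells alone. The labels give a longer time at the ALI for the general culture method, and the days used here are those of the sample titles.

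SPINK1 is a small secreted protein with a Kazal domain that sits in the active site of trypsin and blocks it. In the pancreas it is made mainly by acinar cells and protects the gland against trypsin that becomes active too early, and damaging variants of it predispose to pancreatitis. It is also made outside acinar cells, among others by mucous cells of the stomach and by tumours, and it has been described as a ligand of the EGF receptor and as a gene that responds to interleukin-6. In the ferret assembly ASM1176430v1.1 the RefSeq table lists SPINK1 (gene 101675158) as a protein-coding gene from 14600408 to 14607815, without the name of its chromosome. The genes listed beside it are SCGB3A2, which ends at 14567780, and JAKMIP2, which starts at 14643211, and no listed neighbour overlaps it.

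The 8 libraries held 32945 retained cells and between 34735952 and 114585136 unique molecular identifiers (UMIs, single counted transcripts). The median cell had between 14949 and 16862 UMIs in WT libraries and between 17833 and 23427 in CF libraries. A total of 148 barcode sequences occurred among the retained cells of more than 1 library, of 32796 in all. The targeted gene, CFTR, was counted in every library. It stood at 6.57, 16.9, 15.9 and 29.5 CPM (UMIs of the gene per 1000000 UMIs) in WT at day 2, 5, 7 and 9 and at 2.502, 8.69, 11.1 and 11.4 CPM in CF, although the study describes the knockout as free of CFTR mRNA. WT and CF therefore mean the libraries labelled so. Intervals below are 95% intervals for counting error only. Those of CPM, of ratios of CPM and of shares of UMIs take each UMI as independent. They leave out the sampling of cells and are too narrow where few cells hold most UMIs.

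SPINK1 was close to absent in WT cultures through day 7 and climbed with each day in CF cultures. In WT, 1, 6, 5 and 233 SPINK1 UMIs were counted at day 2, 5, 7 and 9. Scaled to depth this was 0.0087 CPM (0.00022 to 0.049), then 0.059 CPM (0.022 to 0.13), 0.060 CPM (0.020 to 0.14) and finally 2.75 CPM (2.41 to 3.12). In CF there were 91, 2130, 2029 and 13074. These came to 0.889 CPM (0.716 to 1.09) on day 2, 29.8 CPM (28.5 to 31.1) on day 5, 58.4 CPM (55.9 to 61.0) on day 7 and 261 CPM (257 to 266) on day 9. The 4 CF values lay above the WT value of the same day, and CF day 2 lay between WT day 7 and WT day 9. The first 3 WT libraries could not be told apart, since the intervals of day 5 and day 7 both overlap that of day 2.

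CF exceeded WT 102-fold (17.8 to 4068) at day 2, where the ratio rests on 1 WT UMI. The ratio was 503 (231 to 1371) at day 5, 969 (415 to 2988) at day 7 and 95.1 (83.6 to 109) at day 9. On the log2(CPM + 1) scale, which understates differences near 1 CPM, CF minus WT was 0.91, 4.86, 5.81 and 6.13. Within CF the level rose 33.5-fold (27.2 to 41.8) from day 2 to day 5, 1.96-fold (1.84 to 2.08) to day 7 and 4.48-fold (4.27 to 4.69) to day 9. Within WT the step from day 7 to day 9 was 45.6-fold (19.3 to 142), and that day 9 level was set largely by a single cell, described below.

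**Figure D1:**
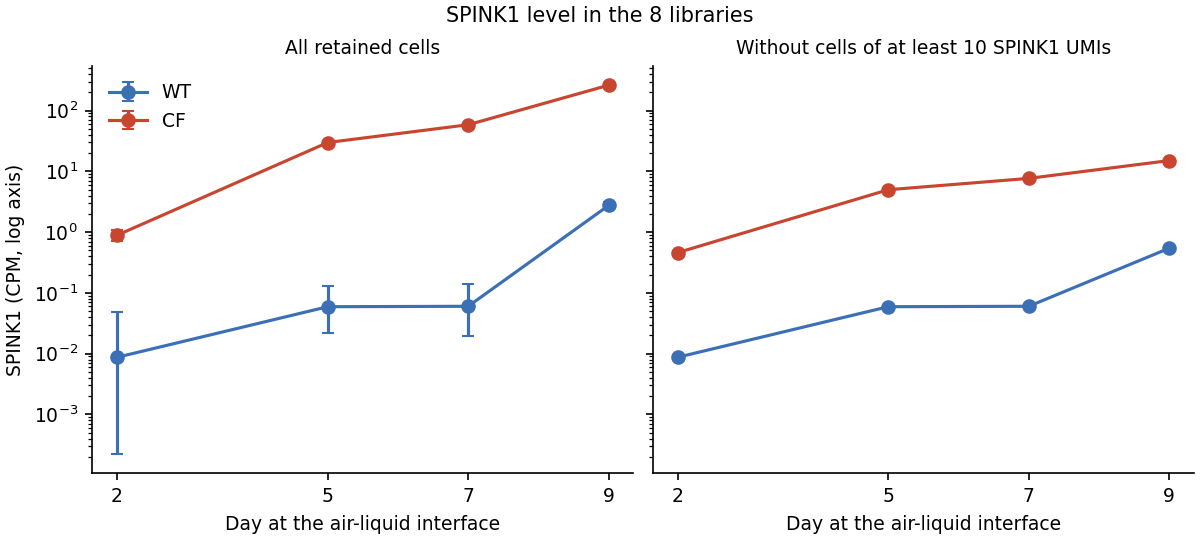
SPINK1 in CPM (log axis) against day at the air-liquid interface, for WT and CF libraries, 1 library per point. Bars in the left panel are 95% Poisson intervals. On the right, cells of at least 10 SPINK1 UMIs are left out, and CF day 9 falls from 261 to 15.0 CPM while the 4 CF points stay above the WT points of the same day.

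The transcripts lay in very few cells. At CF day 9, 425 of 2489 cells held a SPINK1 UMI, and 12 of them held 50% of all its UMIs. At CF day 2, 5 and 7 the number of cells that held 50% was 4, 5 and 2. The cell with most held 18, 480, 677 and 856 UMIs in the CF libraries in day order, and 1, 1, 1 and 135 in the WT libraries. In the CF day 9 cell with 856 SPINK1 UMIs they were 4.33% of the 19773 UMIs of the cell, and in the next, with 853, they were 4.35% of 19597. A single SPINK1 UMI was all that 204 of the 425 positive cells at CF day 9 and 26 of the 35 at WT day 9 held.

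Cells with at least 10 SPINK1 UMIs, a limit set after the data had been seen, are called SPINK1-high here. They are a cut of the counts and are not taken as a cell type. At CF day 9, 44 cells held 5 to 9 UMIs, 14 held 10 to 19 and 48 held at least 50. Whether they form a group of their own was not tested. SPINK1-high cells numbered 3, 29, 15 and 89 in the CF libraries, or 0.0667% (0.0138 to 0.195), 1.05% (0.707 to 1.51), 0.933% (0.523 to 1.53) and 3.58% (2.88 to 4.38) of cells. No cell reached the limit in WT at day 2, 5 or 7, which allows a share of up to 0.0482% at day 2 and 0.0647% at day 7. At WT day 9 there were 3, with 135, 28 and 24 UMIs. The mean SPINK1-high cell held 14.7, 61.3, 118 and 139 SPINK1 UMIs in CF in day order, and the median 14, 34, 36 and 68. The day 7 mean rests on 1 cell with 677 of 1767 UMIs. Both the share of such cells and their content were thus highest at day 9, while the share did not differ between day 5 and day 7 beyond its interval.

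These cells accounted for 48.4%, 83.5%, 87.1% and 94.5% of SPINK1 UMIs in CF and for 80.3% at WT day 9. Without them CF stood at 0.460, 4.98, 7.66 and 15.0 CPM and WT at 0.0087, 0.059, 0.060 and 0.543 CPM. The order of the libraries by day and genotype was thus kept among the remaining cells, at a level 17.4 times lower at CF day 9. Leaving out the 1 cell with most SPINK1 moved WT day 9 from 2.75 to 1.16 CPM. The same step moved CF day 7 from 58.4 to 39.0 CPM, CF day 5 from 29.8 to 23.1 CPM and CF day 9 only from 261 to 244 CPM.

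**Figure D2:**
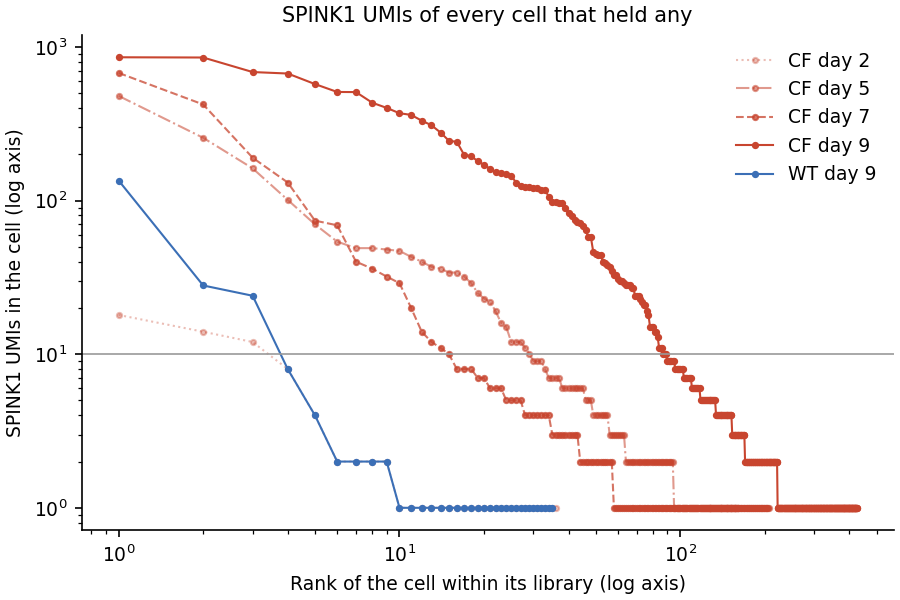
SPINK1 UMIs of each cell (log axis) against its rank within its library (log axis), for the 4 CF libraries and WT day 9. The grey line marks 10 UMIs, which 89 cells of CF day 9 and 3 cells of WT day 9 reached.

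Few other genes were as unevenly spread. At CF day 5, 7 and 9 the share of a gene's UMIs in the 1% of cells with most of it was computed. It covered all genes of at least 10 CPM in the library, a level that SPINK1 did not reach at CF day 2. For SPINK1 this share was 83.0% at day 5, the highest of 7568 genes, with a median over genes of 6.15%. It was 87.5% at day 7, second of 7845 genes after ACTA2, a smooth muscle actin, at 98.1%. At day 9 it was 69.8%, second of 7687 genes, between LOC101678067 at 100% and WFDC2, a secreted whey acidic protein family inhibitor, at 66.8%. The other genes named here were singled out after their values were seen.

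**Figure D3:**
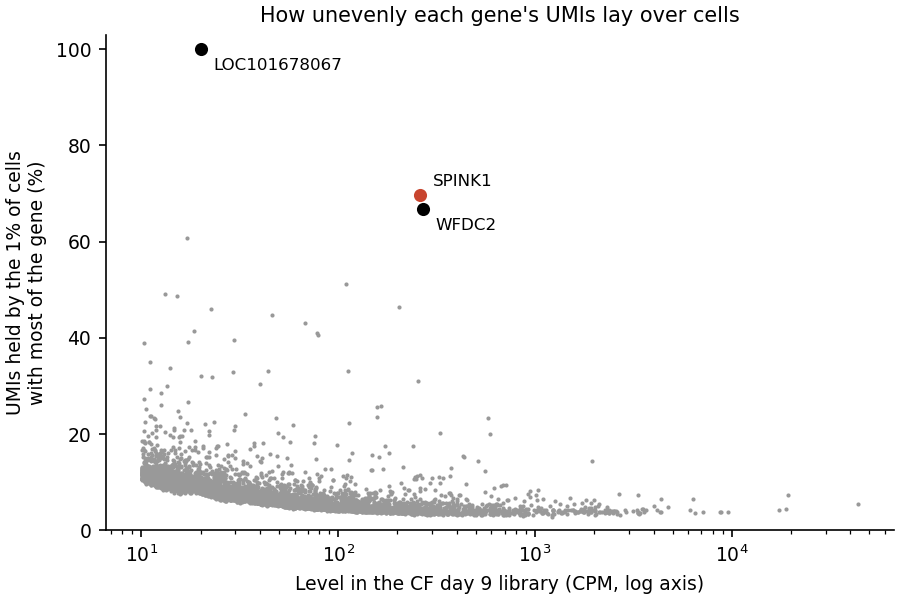
Share of each gene's UMIs held by the 1% of cells with most of it (%), against its level (CPM, log axis), for 7687 genes in the CF day 9 library. SPINK1, at 261 CPM and 69.8%, stands apart from most genes of its level, together with WFDC2.

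By share of cells with a UMI, the libraries took the same order as by CPM within CF. The shares were 0.80% (0.561 to 1.11), 7.49% (6.53 to 8.54), 9.96% (8.54 to 11.5) and 17.1% (15.6 to 18.6) in CF and 0.016%, 0.11%, 0.11% and 0.65% in WT. With every cell thinned to 3000 UMIs, which left out 39, 45, 411 and 224 shallower CF cells and 80, 150, 73 and 136 WT cells, the shares were 0.13%, 2.14%, 2.93% and 8.04% in CF. In WT they were then 0, 0.058%, 0.044% and 0.19%, and the 0 of 6144 cells at day 2 allows a share of up to 0.0488%. Part of the unthinned share stems from single UMIs in clusters with no strongly positive cell. At CF day 9, 9 of the 14 clusters with at least 20 cells had no cell above 2 SPINK1 UMIs, and 4.98% of their 1485 cells held one, at a median depth of 18244 UMIs per cell. In CF cluster 3, for example, 28 of 521 cells had exactly 1 UMI (5.37%). These clusters were picked for their low counts and free RNA was not measured, so whether such UMIs mark expression was not tested. A share near 5% at that day is for this reason not read as expression. Outside the 5 clusters with most SPINK1-high cells, named below, 2.14%, 5.98% and 5.25% of CF cells held a UMI at day 5, 7 and 9. Within those 5 clusters it was 23.2%, 28.4% and 38.4%. Whether more cells expressed SPINK1 at day 7 than at day 5 was not tested.

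The clusters and class names used next were deposited by the authors, who had clustered each genotype separately. In CF, 26 of 30 clusters held a SPINK1 UMI and 9 reached 10 CPM. Because SPINK1 was among the genes of the clustered cells, differences between clusters are descriptions. CF cluster 19 (deposited as ductal, 331 cells) had the highest level over all days, 775 CPM (757 to 793), and 52.0% of its cells held a UMI. CF clusters 18 and 17, both deposited as centroacinar progenitors, followed at 429 (416 to 442) and 333 (321 to 345) CPM with 23.4% and 20.1% of cells. CF clusters 7 and 15, deposited as centroacinar, had 130 (125 to 136) and 76.1 (71.0 to 81.5) CPM with 31.0% and 30.5% of cells. These values pool days, and 70.4%, 41.1%, 11.2%, 95.9% and 1.39% of the cells of clusters 19, 18, 17, 7 and 15 came from day 9. Within days the order differed, and cluster 19 led at none: cluster 17 was highest of the 5 at day 5 and day 9, and cluster 15, with 12 cells, at day 7 (331 CPM, 279 to 390, overlapping the interval of cluster 19). A single cell held 131 of the 142 UMIs of cluster 15 at day 7, which stood at 29.4 CPM without it. At day 5, without SPINK1-high cells, cluster 17 stood at 11.3 CPM, below cluster 15 at 17.8 CPM and cluster 19 (10 cells) at 32.2 CPM. CF clusters 21, 13 and 29, at 104, 48.7 and 49.5 CPM, had no SPINK1-high cell, and the first 2 were shallow, with a median of 1044 and 1018 UMIs per cell.

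**Figure D4:**
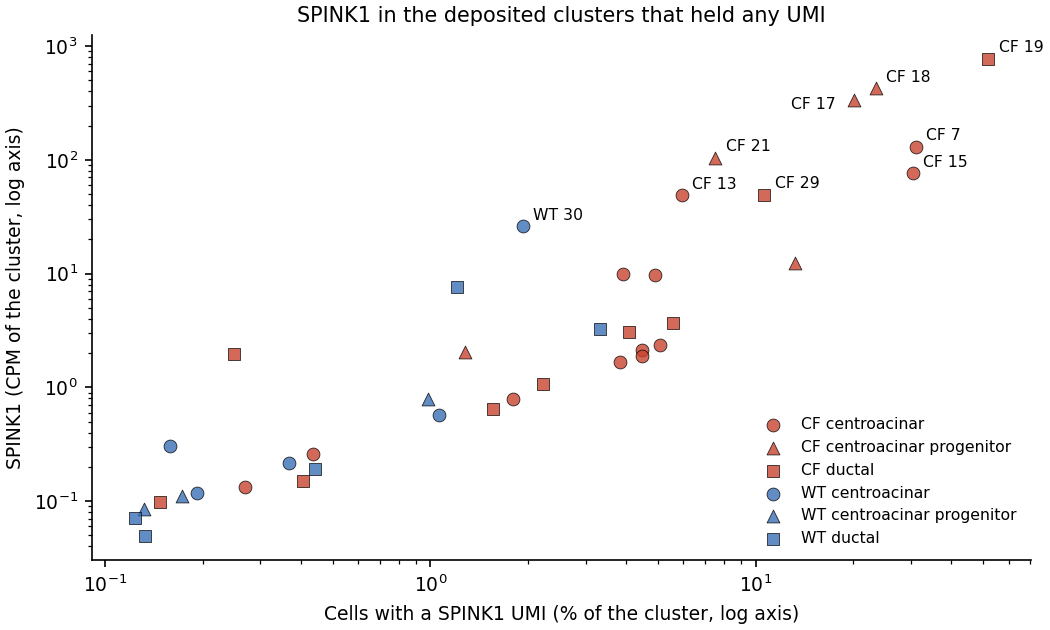
SPINK1 level of a deposited cluster (CPM, log axis) against the share of its cells with a SPINK1 UMI (%, log axis), for the 26 CF and 13 WT clusters that held any. Colour gives the genotype and the symbol the deposited class; CF cluster 19 lies highest at 775 CPM and 52.0% of cells, and WT cluster 30 is highest among WT clusters at 26.1 CPM.

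CF clusters 7, 15, 17, 18 and 19 were the clusters with at least 10 SPINK1-high cells each, a choice made after the data had been seen. None of them held a cell of the day 2 library. They made up 25.4%, 17.7% and 35.7% of CF cells at day 5, 7 and 9 and held 93.1%, 94.1% and 99.1% of SPINK1 UMIs. Within them SPINK1 stood at 99.8 (95.4 to 104), 191 (182 to 200) and 551 (542 to 561) CPM, and 3.72%, 5.26% and 10.0% of their cells were SPINK1-high. In all other CF cells together it stood at 0.889, 2.83, 4.85 and 4.26 CPM at day 2, 5, 7 and 9. In the 5 clusters the level was 5.53 times higher at day 9 than at day 5, and their share of cells was also higher. The ratio compares different clusters, since 344 and 254 of the 698 cells at day 5 were of clusters 15 and 17 and 473 and 233 of the 889 at day 9 of clusters 7 and 19. All 89 SPINK1-high cells of day 9 lay in these clusters, which had been chosen for such cells, so the contrast with the other cells follows from the choice.

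Cluster 19 went from 301 CPM (283 to 320) in 88 cells at day 7 to 1143 CPM (1114 to 1172) in 233 cells at day 9, and its share of cells with a UMI from 30.7% to 60.9%. A single cell with 677 of the 1025 UMIs set most of the day 7 level, which was 13.7 CPM without the 7 SPINK1-high cells. Over all days it was the only one of the 5 in which most cells were positive. After thinning, 13.6% and 36.5% of its cells were positive. At day 9 it held 45.0% (44.1 to 45.8) of the library's SPINK1 UMIs and 55 of its 89 SPINK1-high cells. Cluster 18 stood at 24.9, 149 and 1089 CPM (1054 to 1126) at day 5, 7 and 9, and its share of positive cells was 10.1%, 26.4% and 29.5%. A single cell held 54 of its 68 UMIs at day 5 and 422 of 559 at day 7, and without SPINK1-high cells it stood at 5.23 and 13.3 CPM on those days. Cluster 17 stood at 192, 94.6 and 1868 CPM, while its share of positive cells was 18.1%, 25.0% and 25.6%. At day 9 cluster 17 had 39 cells, and 4 SPINK1-high cells gave it this level. In both clusters the median cell was shallower at day 9 than at day 7. It held 20193 against 30596 UMIs in cluster 17 and 21715 against 33458 in cluster 18. With cells thinned, the share of positive cells at day 5, 7 and 9 was 6.72%, 7.14% and 12.8% in cluster 17. In cluster 18 it was 2.25%, 3.64% and 12.9%. Without SPINK1-high cells, clusters 17, 18 and 19 stood at 14.1, 17.7 and 66.1 CPM at day 9. Cluster 15 was mostly a day 5 cluster, with 66.2 CPM (61.3 to 71.3) in 344 cells, and cluster 7 mostly a day 9 cluster, with 135 CPM (129 to 142) in 473 cells. Without their 15 and 16 SPINK1-high cells on those days, they stood at 17.8 and 20.4 CPM.

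By deposited class at CF day 9, SPINK1 stood at 1215 CPM (1182 to 1249) in 246 centroacinar progenitors and at 932 CPM (908 to 956) in 284 ductal cells. It was at 50.7 CPM (48.5 to 53.0) in 1957 centroacinar cells. The share of cells with a UMI was 22.4%, 51.8% and 11.4% in the same order, so the class with the higher CPM was not the one with more positive cells. The progenitor level rested on 18 SPINK1-high cells and the ductal level on 55. Without them the order turned, with 19.5 CPM in progenitors, 55.6 CPM in ductal cells and 9.18 CPM in centroacinar cells. At CF day 5 the centroacinar progenitors also led, at 83.8 CPM, with 18.5 CPM in centroacinar cells and 4.34 CPM in ductal cells, and at day 7 the ductal cells led at 167 CPM with progenitors at 112 CPM. The ductal class was made of different clusters by day, with 329 of its 530 cells from cluster 12 and 10 from cluster 19 at day 5, and 88 of 176 and 233 of 284 from cluster 19 at day 7 and 9. The day 7 ductal level rested on 7 SPINK1-high cells, 1 of which held 677 of 1039 UMIs. Without SPINK1-high cells progenitors led at day 7, at 18.2 CPM against 9.56 CPM in ductal cells, and at day 5 they had 8.12 CPM against 4.98 CPM in centroacinar and 2.37 CPM in ductal cells. No SPINK1 UMI was found in the 200 CF cells deposited as proliferating acinar, 154 of them from day 2.

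In WT, 28 of 41 clusters held no SPINK1 UMI. WT cluster 30, deposited as centroacinar, had 166 of the 245 WT UMIs and 26.1 CPM (22.3 to 30.4), and 135 of them were in the single cell named above. Without its 2 SPINK1-high cells it stood at 0.475 CPM. WT cluster 17, deposited as ductal, had 3.22 CPM (2.21 to 4.55) with at most 8 UMIs in a cell, and 17 of its 406 day 9 cells (4.19%) were positive. WT cells deposited as acinar or proliferating acinar held no SPINK1 UMI, and the 650 proliferating acinar cells of day 2, the largest such group, allow up to 0.192 CPM. Most of these cells, with 339 of the acinar ones, came from day 2, where the whole WT library held 1 SPINK1 UMI. The lack of a UMI therefore does not set them apart from other WT cells of that day.

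SPINK1-high cells were then set beside the other cells of their own clusters in the same library, with SPINK1 taken out of the totals. In the profile of those other cells each cluster was weighted by the UMIs of its SPINK1-high cells. SPINK1-high cells had similar depth at day 5 (median 28758 against 29663 UMIs) and day 7 (34348 against 34490) and less at day 9 (20899 against 26732). Their median mitochondrial share was 10.6%, 10.8% and 11.03% at day 5, 7 and 9, against 9.27%, 10.7% and 9.05% in the other cells of those clusters and 6.76%, 5.71% and 5.65% in the whole libraries. The part of depth and mitochondrial share in what follows was not tested.

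Apart from SPINK1 the SPINK1-high cells differed little from these neighbours in genes of at least 50 CPM in either set. Of these genes, 98.96%, 95.4% and 99.4% lay within 1.5-fold at day 5, 7 and 9. Cells had been grouped into clusters by likeness of expression, so small differences within a cluster are in part built in. At least 2-fold higher were 0% of 2969 genes at day 5, 0.13% of 3075 at day 7 and 0% of 2800 at day 9, and at least 2-fold lower were 0.101%, 0.553% and 0.0714%. None of the 2653 genes measured in all 3 libraries was past 2-fold in the same direction in all of them. These shares rest on 29, 15 and 89 SPINK1-high cells, and those at day 7 on the fewest.

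LY6D, a surface protein of the LY6 family, was the one gene past 2-fold in each library, but it turned direction. It was lower in SPINK1-high cells at day 5 (71.7 against 173 CPM) and day 9 (28.5 against 163 CPM) and higher at day 7 (93.4 against 39.3 CPM). WFDC2 was lower at day 9, at 208 against 430 CPM. At day 7, DUOXA2, a maturation factor of dual oxidase, was higher at 75.9 against 14.4 CPM, and AGR2, a disulfide isomerase of mucous cells, was lower at 7.78 against 62.2 CPM on 4 UMIs. UPK1A, a uroplakin of umbrella cells, was at 538, 838 and 776 CPM in SPINK1-high cells and 436, 636 and 683 CPM in the others. MUC1 was at 1307, 1385 and 1091 CPM against 1330, 1383 and 992 CPM. CFTR was at 14.6, 21.4 and 11.7 CPM against 14.5, 17.1 and 15.9 CPM, on 12, 11 and 23 UMIs. LY6D, WFDC2, DUOXA2, AGR2, UPK1A and MUC1 were singled out after their values were seen.

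The 10 genes most like SPINK1 were taken by Spearman's rho of log2(CPM + 1) across the deposited clusters of each genotype. Genes that reached 10 CPM in a cluster were ranked. These are descriptions over clusters that share libraries, depth and cells, not over independent samples. Across the 30 CF clusters they were TFF1 (rho 0.91), TNFRSF11A (0.90), REPS2 (0.89), LTF (0.89), GFPT1 (0.89), TNFRSF19 (0.89), ALDH6A1 (0.89), VPS50 (0.89), TMEM236 (0.88) and TFF2 (0.88). TFF1 and TFF2 are trefoil peptides secreted by gastric mucous cells, and LTF, lactoferrin, is an iron-binding protein of secretions. TNFRSF11A (the RANK receptor) and TNFRSF19 are receptors of the tumour necrosis factor receptor family. GFPT1 makes the first step of hexosamine synthesis, ALDH6A1 acts in the breakdown of valine, REPS2 is an endocytosis adaptor and VPS50 serves endosome recycling. Of 10634 genes, 134 had a rho over 0.8, so these 10 are the top of a long list. Most of them changed with some settings, with 2 of the 10 kept when SPINK1 was taken without its high cells. CFTR itself had a rho of 0.84.

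In level over days the trefoils rose at each step in CF, as SPINK1 did, and lactoferrin rose to day 7 only. TFF1 was at 0.166, 6.76, 52.3 and 110 CPM at day 2, 5, 7 and 9, TFF2 at 1.77, 27.9, 130 and 203 CPM, and LTF at 2.65, 61.8, 122 and 112 CPM. In WT they rose as well, where SPINK1 stayed low. WT TFF1 was at 0.018, 1.33, 8.44 and 137 CPM, WT TFF2 at 0.262, 16.4, 74.7 and 324 CPM, and WT LTF at 0.018, 4.54, 11.5 and 116 CPM. At day 9 the WT library thus held more TFF1 and TFF2 than the CF library and about as much LTF, beside 95.1 times less SPINK1. GFPT1, ALDH6A1 and VPS50 ranged less, from 37.5 to 66.2, 12.4 to 27.6 and 15.5 to 25.7 CPM in CF. TNFRSF11A went from 1.63 to 22.1 CPM and TNFRSF19 from 2.00 to 13.5 CPM between day 2 and day 9, and REPS2 and TMEM236 stayed under 6 CPM.

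Within clusters the likeness did not hold for every one of these genes. TFF2 was lower in SPINK1-high cells than in the other cells of their clusters in all 3 libraries, at 10.9 against 27.8 CPM at day 5 (9 UMIs), 159 against 336 CPM at day 7 and 269 against 537 CPM at day 9. TNFRSF11A was at 17.01 against 14.98 CPM at day 5 and 25.3 against 22.7 CPM at day 7, on 14 and 13 UMIs in SPINK1-high cells, too few to tell these apart. At day 9 it was at 55.5 against 32.9 CPM on 109 UMIs. TFF1 was at 1.21 against 6.90 CPM at day 5 (1 UMI), 85.6 against 122 CPM at day 7 and 258 against 229 CPM at day 9. The median log2 difference of the 10 genes was -0.04, -0.68 and 0.18 at day 5, 7 and 9, and 2, 4 and 0 of them were past 2-fold, all lower in SPINK1-high cells. Those were TFF1 and TFF2 at day 5 and TFF2, TNFRSF19, REPS2 and TMEM236 at day 7, and apart from TFF2 at day 7 each rested on 1 to 9 UMIs in SPINK1-high cells. Several of these genes were below the 50 CPM asked of the genes above, of which 0.101% and 0.553% were at least 2-fold lower at day 5 and 7.

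**Figure D5:**
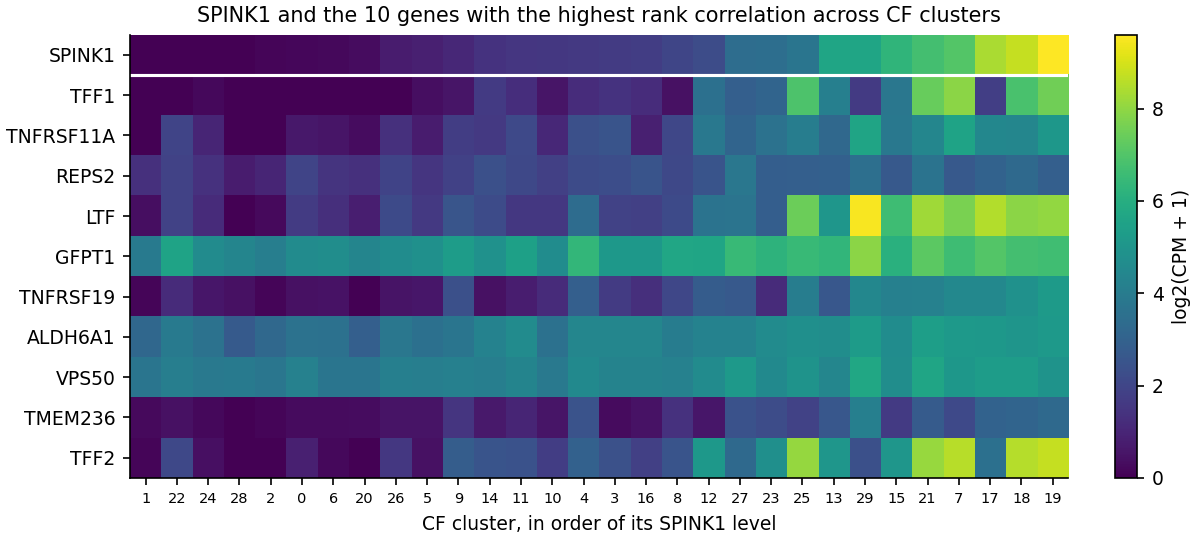
log2(CPM + 1) of SPINK1 (top row) and of the 10 genes with the highest rank correlation with it, in the 30 CF clusters ordered by SPINK1 level. Cluster 17 holds SPINK1 at 333 CPM with little TFF1 and TFF2. Both trefoils are high in clusters 7, 18 and 19, and also in clusters 21 and 25, with SPINK1 at 104 and 12.4 CPM.

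Across the 41 WT clusters the 10 genes were SORBS2 (rho 0.77), RASSF3 (0.76), IFNGR1 (0.76), BCAS1 (0.75), PTGER4 (0.75), UGGT1 (0.74), SOWAHB (0.74), SYTL5 (0.74), EPB41L4A (0.74) and PAM (0.74). IFNGR1 and PTGER4 are receptors for interferon gamma and prostaglandin E2, UGGT1 checks glycoprotein folding and PAM amidates peptides. None of them was among the 10 of CF, which says little for lists of 10 out of 10666 and 10634 genes. With 28 WT clusters tied at 0 SPINK1 UMIs these values rest on 13 clusters, several with 1 to 3 UMIs. In CF clusters the same 10 genes had a rho between 0.30 for PTGER4 and 0.77 for SORBS2. Of the 10 CF genes, those with a value across WT clusters had a rho between 0.50 for TNFRSF11A and 0.64 for LTF. They ranked from 203 to 1107 of 10666 genes, whose median rho was -0.04, and REPS2 and TMEM236 had no value there.

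The genes of related function were compared between genotypes among 8698 genes of at least 10 CPM in a library, and a gene was counted when CF and WT differed at least 2-fold on the log2(CPM + 1) scale. Of all these genes, 4.79%, 2.53%, 4.87% and 3.58% were counted as higher in CF at day 2, 5, 7 and 9, and 4.25%, 4.69%, 3.66% and 3.92% as lower. The median difference of all genes was 0.0035, -0.05, 0.12 and 0.084. A gene could pass the level filter through the libraries of a single genotype. A difference towards that genotype is then in part built into the counts, of the lists and of all genes. The lists were chosen with earlier results of these data known.

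From day 5 on, no other SPINK inhibitor came near SPINK1 in CF. At CF day 2 SPINK4 and SPINK5 stood at 0.850 and 0.752 CPM beside 0.889 CPM of SPINK1. SPINK5, an inhibitor of skin kallikreins, had 24, 63, 74 and 109 UMIs in WT at day 2, 5, 7 and 9, more than SPINK1 at the first 3 days. It had 33 to 85 in CF libraries and at most 1.4997 CPM. SPINK4, known from goblet cells, had 87 UMIs at CF day 2 and at most 13 in any other library. SPINK2, SPINK7 and SPINK13 had 5, 10 and 4 UMIs over all 8 libraries, and SPINK9 and SPINK14 had none. SPINK6 and SPINK8 are not listed under these symbols, and SPINK1 alone of 8 listed members passed the level filter.

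The enzymes that SPINK1 restrains could be followed only in part. PRSS1, PRSS2, PRSS3 and CTRC are not listed under these symbols, and TMPRSS15 (enteropeptidase, the activator of trypsinogen) had no UMI in any library. CTSB, a lysosomal protease that can activate trypsinogen, was at 97.7, 133, 136 and 155 CPM in WT and 101, 91.6, 112 and 115 CPM in CF, under 2-fold apart at each day. CTRL, a chymotrypsin-like protease, had 66 to 89 UMIs in WT and 40 to 89 in CF libraries.

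Of the genes linked to pancreatitis other than SPINK1 and the proteases, CFTR and TRPV6, an epithelial calcium channel, passed the level filter. TRPV6 was at 0.148, 2.32, 3.24 and 17.2 CPM in WT and 0.401, 1.12, 1.35 and 2.32 CPM in CF. Both were at least 2-fold lower in CF at day 9, with log2 differences of -1.30 and -2.45, where SPINK1 was 6.13 higher. TRPV6 passed the filter through WT day 9 alone, so its count as lower in CF is in part built in. CASR, CEL and CLDN2 had 5, 18 and 14 UMIs over all libraries. Across CF clusters TRPV6 had a rho of 0.75 with SPINK1, so it was lower in the CF library while its order over CF clusters was like that of SPINK1.

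Acinar markers could be followed only in part. Of 23 chosen, 11 are not listed under these symbols, the defining PRSS1, PRSS2 and CTRC among them, and their levels were not analysed here. Of the 12 listed, CLPS, the colipase, alone passed the filter, at 22.1 to 110 CPM in WT and 18.3 to 81.4 CPM in CF, and it had a rho of 0.05 with SPINK1 across CF clusters. CPB1, PNLIPRP1 and PTF1A, the acinar master factor, were at 0 in all libraries. CELA1, SYCN, RBPJL and BHLHA15 had 39 to 50 UMIs over all libraries, and GP2 had 182 in WT and 14 in CF. In the 5 SPINK1 clusters the summed acinar markers were between 9.33 and 49.5 CPM, against 10.2 to 219 CPM in the other 25 CF clusters. The acinar sum was 23.0, 65.7, 56.8 and 113 CPM in WT and 19.4, 31.3, 61.8 and 82.5 CPM in CF, mostly CLPS, so it too rose at each step in CF. Its part in the SPINK1 level was not tested.

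Of other secreted or cellular protease inhibitors, 18 were measured, and 5, 2, 4 and 5 were counted as higher in CF at day 2, 5, 7 and 9 against 3, 3, 2 and 2 as lower. With TMM or DESeq2 scaling it was 4 higher and 3 lower at day 7, and 4 higher and 2 lower at day 9. Their median differences were 0.26, -0.19, 0.26 and 0.04. WFDC2 ran the opposite way to SPINK1 between genotypes, at 128, 1629, 1532 and 11815 CPM in WT and 0.469, 34.8, 95.3 and 271 CPM in CF, though both genes were highest at day 9 in each genotype. TIMP1 was at 57.9, 110, 89.9 and 72.6 CPM in WT and 147, 170, 151 and 167 CPM in CF. SPINT2, a Kunitz inhibitor of membrane proteases, was at 32.9, 92.2, 67.0 and 72.6 CPM in WT and 53.5, 83.2, 112 and 148 CPM in CF. SERPINB5 and SERPINB6 were under 2-fold apart at each day.

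Among 12 measured epithelial trypsin-like proteases and their receptor, 3, 1, 1 and 1 were counted as higher in CF and 0, 0, 1 and 3 as lower, with medians of 0.62, 0.15, 0.06 and -0.10. With TMM or DESeq2 scaling none was higher at day 7. TMPRSS2 was at 43.7, 92.7, 99.1 and 196 CPM in WT and 32.7, 63.5, 67.1 and 75.9 CPM in CF, and its rho with SPINK1 across CF clusters was 0.81. PLAU, the urokinase, was at 163, 167, 130 and 104 CPM in WT and 221, 110, 53.8 and 49.2 CPM in CF. PRSS23, PRSS22, TMPRSS11D and ST14, the matriptase, were under 2-fold apart at each day.

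Of the EGF receptor family and its ligands, 2, 2, 1 and 2 of 8 measured members were higher in CF and none was lower, with medians of 0.75, 0.53, 0.75 and 0.18. With TMM or DESeq2 scaling 1 was lower at day 7, and with TMM 1 instead of 2 was higher at day 9. EGF, counted as higher in CF at each day, was at 0.262, 0.494, 0.916 and 2.29 CPM in WT and 1.98, 8.44, 12.7 and 14.8 CPM in CF. Its rho with SPINK1 across CF clusters was 0.70, and it was singled out after its values were seen. EGF passed the level filter through CF libraries alone. EGFR was at 182, 232, 209 and 185 CPM in WT and 248, 341, 410 and 402 CPM in CF, with a rho of -0.21 with SPINK1 across CF clusters. ERBB3 was at 9.12, 12.4, 15.8 and 26.4 CPM in WT and 21.9, 27.9, 27.1 and 26.4 CPM in CF. AREG, EREG, HBEGF and ERBB2 were under 2-fold apart at each day. Of interleukin-6 signalling and acute phase genes, none of 10 measured was higher in CF, and 2, 1, 1 and 2 were lower, with medians of 0.06, -0.0049, -0.03 and -0.0053. The 2 lower at day 9 passed the level filter through WT libraries alone, so that count is in part built in. With TMM scaling 3 were lower at day 7 and 3 at day 9, and with DESeq2 scaling 3 at day 7. CEBPD, a transcription factor of the acute phase response, was at 284, 155, 201 and 112 CPM in WT and 37.5, 68.3, 65.5 and 60.6 CPM in CF, at least 2-fold lower in CF at day 2, 5 and 7. STAT3 was at 86.1 CPM in WT and 92.8 CPM in CF at day 9, IL6ST at 78.6 and 95.0 CPM and JAK1 at 156 and 251 CPM, and these 3, JAK2 and CEBPB were under 2-fold apart at each day.

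Marker sums of mucous and umbrella cells in the 5 SPINK1 clusters lay above the median of the other CF clusters, which also held high sums. None of the 5 clusters held a day 2 cell, while several others were mostly of day 2, such as cluster 1 with 726 of its 733 cells. Contrasts of marker sums between clusters, the acinar sums above included, thus mix day with SPINK1 level. Markers of gastric surface and neck mucous cells summed to 841 CPM in CF cluster 19 and 806 CPM in cluster 7, the highest of 30 CF clusters, and to 691, 405 and 290 CPM in clusters 18, 17 and 15, against a median of 87.3 and a highest value of 710 CPM in the other 25 clusters. This list holds TFF1 and TFF2, which were found by their likeness to SPINK1 in these clusters. Without both, the 5 clusters held 180 to 392 CPM, against a median of 54.7 and a highest value of 431 CPM elsewhere, and clusters 19 and 7 ranked 5 and 9 of 30. Umbrella cell markers of the urothelium summed to 1972 and 1761 CPM in clusters 18 and 19, the highest of all, and to between 1247 and 1512 CPM in the other three, against a median of 871 and a highest value of 1474 CPM. Markers of intestinal goblet cells were highest in clusters 7 and 19, at 453 and 362 CPM, and stood at 83.4 and 89.0 CPM in clusters 15 and 17, with a median of 75.9 and a highest value of 277 CPM elsewhere. Airway secretory markers summed to between 140 and 426 CPM in the 5 clusters, with a median of 5.00 and a highest value of 846 CPM elsewhere. Without LTF, also found by likeness, they summed to 42.6 to 74.9 CPM, with a median of 2.77 and a highest value of 118 CPM elsewhere. Proliferation markers were low, between 5.38 and 12.9 CPM against a median of 18.8 CPM, and mesenchymal markers stood between 13.3 and 27.7 CPM against a median of 22.1 CPM. Duct markers ranged from 5140 to 10411 CPM in the 5 clusters, below or near the median of 9918 CPM elsewhere, and in cluster 19, deposited as ductal, they stood at 5844 CPM, rank 28 of 30.

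Between the libraries, gastric, umbrella and mesenchymal marker sums rose at each step in CF, as SPINK1 and the acinar sum did, and only the umbrella sum was also above WT at each day, among these 3 groups. Gastric markers summed to 26.1, 70.3, 146 and 621 CPM in WT and 113, 202, 289 and 410 CPM in CF, and 3, 3, 2 and 1 of 5 measured were higher in CF against 0, 1, 0 and 1 lower. With TMM scaling it was 1 higher and 1 lower at day 7, and with DESeq2 1 higher and 0 lower. Umbrella markers summed to 484, 804, 736 and 980 CPM in WT and 678, 1086, 1219 and 1229 CPM in CF, and 1, 3, 3 and 3 of 7 were higher, of which 2 remained at day 9 with TMM or DESeq2 scaling. UPK3A, a uroplakin, was at 6.66, 5.29, 5.77 and 7.96 CPM in WT and 8.19, 50.3, 59.7 and 57.7 CPM in CF, and passed the level filter through CF libraries alone. Not all measured umbrella markers shared its direction. At day 9 UPK1B was at 602 CPM in WT and 475 CPM in CF. UPK3B was at 54.4 and 44.3 CPM there, and GRHL3 at 29.1 and 21.4 CPM. Goblet and airway secretory markers were lower in CF at day 9 in 3 of 5 and 5 of 6 measured members. Of these, SPDEF, CLCA1, BPIFB1 and PIGR passed the level filter through WT libraries alone, so their count as lower is in part built in. Airway markers summed to 26.8, 49.0, 96.1 and 284 CPM in WT and 16.5, 84.8, 145 and 140 CPM in CF, higher in CF at day 5 and 7. The goblet sum was higher in CF at day 2 alone, at 97.5 against 54.5 CPM. Mesenchymal markers summed to 17.1, 290, 152 and 329 CPM in WT and 25.6, 65.5, 787 and 883 CPM in CF. Of 4 measured, 2, 0, 4 and 4 were higher in CF and 0, 1, 0 and 0 lower, so the sum was lower in CF at day 5 alone. COL1A1 and ACTA2 passed the level filter through CF libraries alone, so their count as higher is in part built in. The part of these marker groups in the SPINK1 difference was not tested.

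Duct markers summed to between 8154 and 11713 CPM in all libraries, and 1 of 11 was higher and 2 lower in CF at day 9. Proliferation markers were lower in CF in 9, 9 and 8 of 9 measured members at day 2, 5 and 7 and in none at day 9. Of the measured ones, CCNA2, CCNB1, CCNB2 and CDC20 passed the level filter through WT libraries alone. Immune markers summed to between 6.05 and 25.1 CPM, endocrine markers to at most 2.23 CPM and endothelial markers to at most 0.259 CPM in any library. INS, GCG, CDH5 and CLDN5, defining genes of endocrine and endothelial cells, were at 0 throughout.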

How the data were processed

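The authors made UMI counts from droplet single-cell libraries with Cell Ranger 5.0.1 (assembly ASM1176430v1.1), then worked in R 4.1.2 and Seurat, per the labels and the study's methods. The deposited count matrices hold whole UMI counts of 27912 genes in 44243 barcodes. The authors filtered cells (200 or more genes, no more than 20% mitochondrial reads), removed doublets with DoubletFinder (so none was called again here), clustered each genotype and named the clusters. The deposited cell table gave library, cluster, class and percent of mitochondrial UMIs for 32945 cells, of which 77 had a UMI total that differed from the matrix by over 0.1%. The deposited normalized values and lineage scores were not used.

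SPINK1 UMIs were summed by library, class, cluster and cell and divided by the total of all genes (CPM). Intervals are exact Poisson for sums, Clopper-Pearson for shares and conditional binomial for ratios, at 95%. They cover counting error only, and those of UMI sums, ratios and shares of UMIs leave out the sampling of cells. A 0 was given the limit of 3 counts in its library. Differences are log2 with a pseudocount of 1 CPM. With 1 library of pooled animals per genotype and day, and SPINK1 chosen for its pattern over them, no test was made and no p-value was computed. Cells were thinned to 3000 UMIs for shares. The gene, the lists and the rules were chosen with earlier results of these data known. The named genes were SPINK1, the 10 genes most like it in each genotype, the listed SPINK, protease and pancreatitis genes, CFTR and, in other function lists, at most 6 members with the highest CPM. Of the genes this rule names, 2 are not reported here. Alternatives were the pseudocount, all barcodes, equal weight per cell or class, TMM factors (edgeR 4.0.16), DESeq2 1.42.0 size factors, mitochondrial genes, depth, and for the likeness the measure and the filters. Computation used Python 3.11.15, scipy 1.17.1 and R 4.3.3, and the functions were tested on simulated data. Gene names were those of the matrices, 27467 of them in the RefSeq table.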

Additional observations from a re-analysis of the deposited data

Results flagged for a closer look

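Barcodes that the authors had not retained as cells held SPINK1 as well, at a higher level in CF than in WT. It stood at 19.6 CPM (17.1 to 22.3) at CF day 5, 86.3 CPM (80.9 to 91.9) at day 7 and 179 CPM (169 to 189) at day 9. In WT barcodes of the same kind it was at 0.518 (0.190 to 1.13), 0.200 (0.055 to 0.513) and 1.00 (0.561 to 1.65) CPM. At CF day 9, 17 of these 1034 barcodes held at least 10 SPINK1 UMIs and 1 held 375.

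Of the 10 genes most like SPINK1 in CF clusters, 3 moved in opposite directions in the 2 genotypes between neighbouring days. There is 1 library per point, and the differences were not tested. LTF rose 10.2-fold (9.50 to 10.9) in WT from day 7 to day 9 and stood at 0.913 times (0.877 to 0.9503) its day 7 level in CF, a log2 difference between the steps of -3.48. TNFRSF11A stood at 1.34 times (1.17 to 1.53) its day 5 level at day 7 in CF and at 0.852 times (0.798 to 0.911) in WT, a log2 difference of 0.65. ALDH6A1 stood at 1.36 times (1.24 to 1.48) in CF and 0.917 times (0.857 to 0.981) in WT over the same step, a log2 difference of 0.56.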

How the results depend on the processing

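SPINK1 was higher in CF than in WT at each day under each of the 10 alternatives, 2 of them added after the data had been seen. The larger pseudocount cannot change the direction, only the size of a difference. CF was set beside WT of the same day throughout, no test over the 4 pairs of libraries was made, and with 1 library for each genotype and day no replicate could be left out. The log2 differences of 0.91, 4.86, 5.81 and 6.13 at day 2, 5, 7 and 9 became 0.23, 2.78, 3.65 and 5.10 with a pseudocount of 5 CPM. Without cells of at least 10 SPINK1 UMIs they became 0.53, 2.498, 3.03 and 3.38, and without the 10 cells of each library with most SPINK1 UMIs 0.33, 3.64, 3.40 and 6.82. The last step took out all 1, 6 and 5 positive WT cells at day 2, 5 and 7. CF could not come out below WT on those days, so this step cannot decide the direction there. With each cell counted equally the log2 differences were 5.07, 5.99 and 6.41 at day 5, 7 and 9, and with equal weight for each class 5.11, 6.50 and 7.82. They were 5.63 with TMM factors and 5.93 with all barcodes at day 7, and 4.98 without mitochondrial genes at day 5. Over all genes, TMM shifted the differences by -0.21 on day 7 and by -0.13 on day 9. The shifts with DESeq2 were -0.16 and -0.10. The 45.0% of CF day 9 UMIs in cluster 19 became 33.4% as a share of cells with a UMI, 49.2% after thinning and 36.8% without cells of at least 10 UMIs.

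The 10 genes most like SPINK1 depended on the settings. In CF 3 of the 10 were kept with Pearson's r, 5 with genes of at least 50 CPM, 6 with each cluster in each library as a point, 1 with day 9 alone, 3 without clusters of a median under 5000 UMIs, and 2 with SPINK1 taken without its high cells. In WT 0 were kept with Pearson's r, 4 with clusters of at least 100 cells, 1 with each cluster in each library, 1 with day 9 alone and 4 without shallow clusters. Without the shallow clusters the 10 CF genes still had a rho between 0.85 and 0.90. The cause of these changes was not tested. The WT libraries held more UMIs in all than the CF libraries at each day, with fewer in the median cell, but 12 SPINK1 UMIs in all before day 9 do not order them, and pooled animals leave the spread between donors unknown.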
